A study of Homo sapiens with 6 samples.

Results

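The 43 genes described here serve interferon signalling and antigen presentation: the receptors of type I and type II interferon, 2 of their kinases, STAT and IRF transcription factors, sensors of viral RNA, interferon-stimulated genes and genes of the class I presentation pathway. They were chosen by name, for their known roles; the rule uses no measured value, but the choice was made with earlier results of these data known. All 43 were among the 55401 gene names of the files. Of these, 31 had a mean of 1 TPM (transcripts per 1000000) or more in at least 1 group and were tested, while 12 stayed under 1 TPM in every library. RNA was sequenced from RMS13, a human cell line of alveolar rhabdomyosarcoma (a tumour of the skeletal muscle lineage), and from RMS13-R, a derived line that is resistant to MAL3-101, an inhibitor of HSP70 chaperones. There were 3 groups of 2 libraries, A and B: parental cells given DMSO (the vehicle), parental cells given MAL3-101 and resistant cells given MAL3-101. The drug dose was 10 µM, and each treatment lasted 9 h in medium with serum. No interferon treatment is named in the labels. The labels give 1 resistant line, and not whether it was a single clone. Untreated or DMSO-treated resistant cells are not analysed here, so the line and its response to the drug cannot be told apart in any comparison of resistant with parental libraries. Nor is it stated if A and B came from different cultures, and the p-values therefore cover only the spread among these 6 libraries, which may be technical.

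As background, interferons are secreted proteins that bind paired receptor chains on the cell surface, IFNAR1 with IFNAR2 for type I and IFNGR1 with IFNGR2 for type II. The receptors activate JAK kinases, which phosphorylate STAT proteins. STAT2 and IRF9 are parts of a complex that binds the interferon-stimulated response element (ISRE), and paired STAT proteins bind the gamma-activated site (GAS). Many targets are antiviral proteins, and others load peptides onto class I molecules for display to T cells. Most cells, muscle-lineage tumour cells among them, transcribe some of these genes at a low level without added interferon.

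Stretches of promoter are shown first for 8 members, picked because they are described at length below and were lower in resistant cells. No link between these motifs and the changes was tested, and ISG20, whose window also holds an ISRE core, was not called lower in either resistant comparison. The stretches were taken from RefSeq on GRCh38.p14 and run 5′ to 3′ on the gene's own strand, upstream of its annotated start of transcription. Capitals mark every match to the ISRE core (GAAA, any 2 bases, then GAAA, on either strand) in the first 7 and the match to the GAS core (TTC, any 3 bases, then GAA) in IRF1. Within BST2, ISG15, TAPBP and B2M the pair of ISRE matches overlap each other, and in BST2 a GAS match that overlaps the first of them is not in capitals.
BST2, chr19:17405725-17405780, minus strand: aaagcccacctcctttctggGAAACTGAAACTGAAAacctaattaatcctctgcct
IFI44, chr1:78649751-78649788, plus strand: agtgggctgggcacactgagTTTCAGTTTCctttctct
IFITM3, chr11:320866-320932, minus strand: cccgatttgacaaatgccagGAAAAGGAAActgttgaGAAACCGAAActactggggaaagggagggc
ISG15, chr1:1013364-1013419, plus strand: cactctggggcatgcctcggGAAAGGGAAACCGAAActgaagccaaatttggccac
IFI6, chr1:27672256-27672368, minus strand: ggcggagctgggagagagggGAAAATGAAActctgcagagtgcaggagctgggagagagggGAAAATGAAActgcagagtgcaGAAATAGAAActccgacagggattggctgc
TAPBP, chr6:33314079-33314118, minus strand: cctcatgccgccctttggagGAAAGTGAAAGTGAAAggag
B2M, chr15:44711353-44711408, plus strand: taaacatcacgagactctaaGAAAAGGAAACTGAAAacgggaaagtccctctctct
IRF1, chr5:132490869-132490917, minus strand: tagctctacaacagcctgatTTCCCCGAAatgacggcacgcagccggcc

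RefSeq promoter windows, from 250 bases before to 50 bases after a start, were found for 35 of the 43 members, 49 windows in all. The ISRE core occurred in 25 of them (51.0%), against 3.57% of all 35116 windows, and belonged to 21 members. Among these were 16 interferon-stimulated genes, the sensor IFIH1, and B2M, TAP1, TAP2 and TAPBP of the class I pathway. The GAS core occurred in 10 windows (20.4%, against 7.66% of all windows) of 9 members: IRF1, IRF9, BST2, IFI27, IFI35, IFITM1, MX1, OAS1 and TAP1. None of the windows of IFNAR1, IFNGR1, IFNGR2, JAK1, JAK2, STAT2 or STAT3 held either core. Many members were chosen as known interferon targets, so the motif shares describe the list. A match is a string of letters and no measure of binding, and nothing here measured binding.

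**Figure D1:**
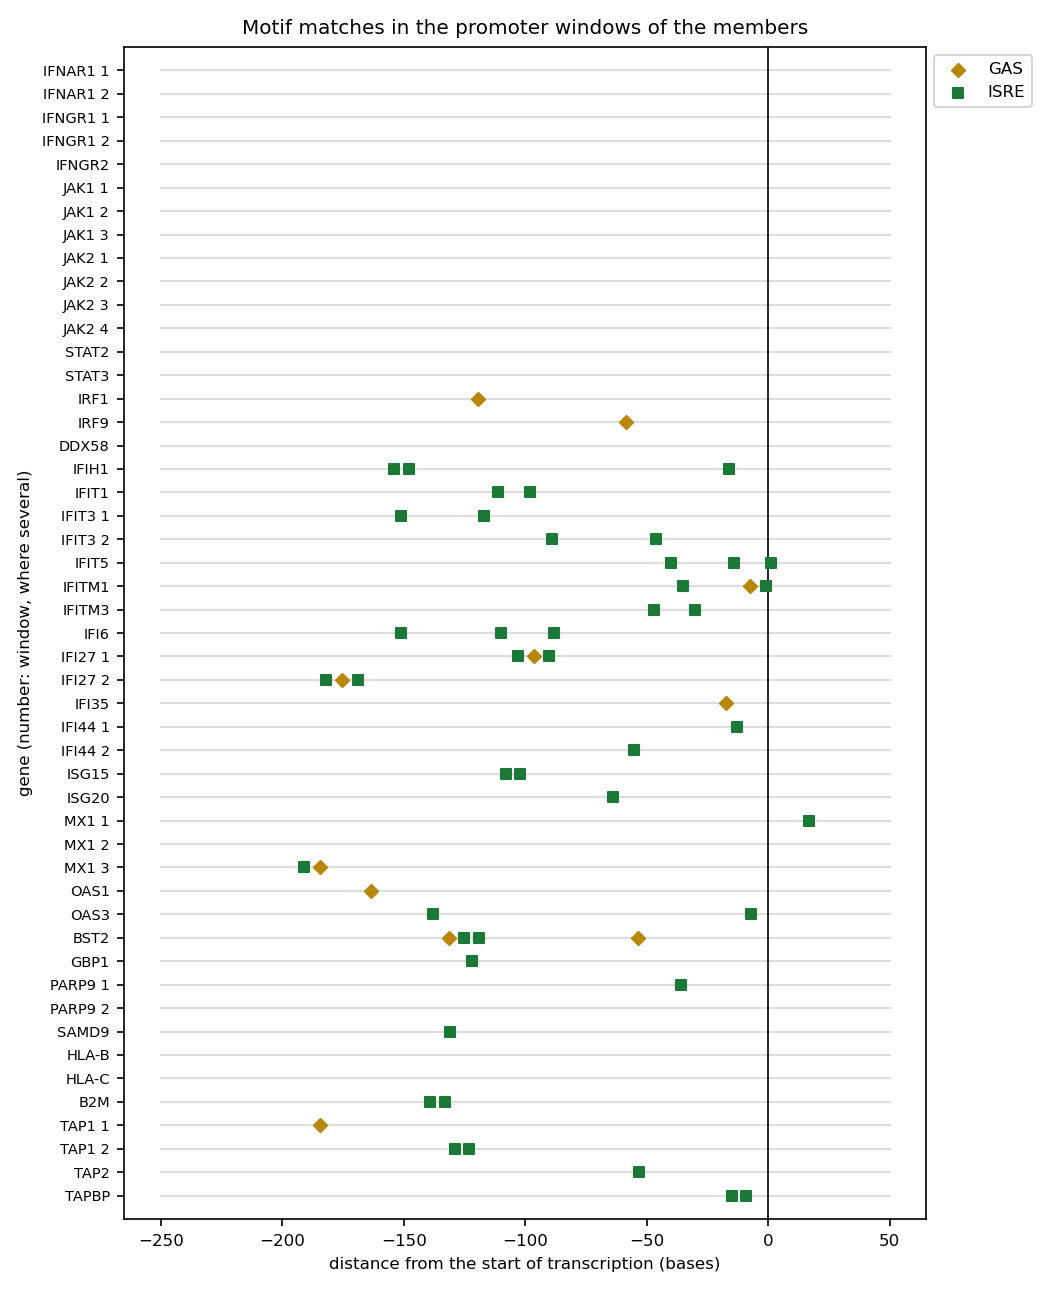
Matches to the ISRE core (green squares) and the GAS core (gold diamonds) in the promoter windows of the 35 members with a window, drawn at the centre of each match, with distance from the start of transcription in bases on the x axis. Grey lines are the windows, numbered where a gene has several; the ISRE core lies in 25 of 49 windows, and the windows of the receptors and kinases hold neither core.

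Each library had from 13918 to 14334 genes at or above 1 TPM. TPM keeps no depth, so the number of reads behind a value is unknown. Muscle and rhabdomyosarcoma markers were present (8 of 9 at 1 TPM or more, MYF5 at 0), with summed levels of 3000 to 3069 TPM with DMSO, 2657 to 2671 in drug-treated parental and 2426 to 2463 in resistant libraries. Of 12 immune cell markers, LYZ alone reached 1 TPM, CD3D and MS4A1 were at 0, and the sums ran from 2.9 to 2.96, 2.24 to 2.9 and 1.38 to 1.7 TPM in the same order. The 3 endothelial markers found summed to at most 0.55 TPM. Of 4 epithelial markers, EPCAM alone reached 1 TPM, KRT5 was at 0, and the sums were 3.7 to 3.87, 6.08 to 6.13 and 0.47 to 0.49 TPM. The muscle, immune and epithelial sums were lowest in resistant cells, although among the muscle markers MYOG, DES and PAX3 were highest there while MYOD1, CHRNA1 and FGFR4 were lowest. The part of these markers in the results was not tested. Mitochondrial ribosomal RNA took 0.533% and 0.565% of TPM with DMSO, 1.92% and 1.97% in drug-treated parental and 0.784% and 0.767% in resistant libraries; its part in the results was not tested, and TPM recomputed without mitochondrial genes changed none of the calls among the members. On the TPM + 1 scale, which understates the spread of low genes, replicates differed most with DMSO. There 5.73% of tested genes lay at least 1.5-fold apart between A and B, against 1.99% and 1.64% in the other groups. IFITM2, IFITM3 and BST2 were among those apart with DMSO.

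The 31 tested members were mostly lower in resistant cells, and their response to the drug in parental cells was mixed. Resistant cells with MAL3-101 had lower levels of 21 members and higher levels of 2 when set against parental cells with MAL3-101 (limma, adjusted p under 0.05). That is 67.7% lower, where 34.8% of all 15148 tested genes were called lower, 21.3% higher and 56.1% either way. Set against parental cells with DMSO, 23 members (74.2%) were lower and 3 higher, beside 29.7% and 20.9% of all tested genes, or 50.6% either way. MAL3-101 in parental cells moved 8 members down and 5 up, 41.9% of those tested in either direction. For all tested genes that share was 40.8%, with 18.2% lower and 22.6% higher, so the share of members that responded to the drug was near the background. These comparisons share libraries, and each is given on its own. Since whole cultures were sequenced, fewer cells that express a gene and less RNA per cell cannot be told apart.

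The sizes of the falls set the resistant libraries apart as well. On the log2(TPM + 1) scale used for every fold change here, which understates changes of low genes, the members' median was -0.79 for resistant against drug-treated parental cells, beside -0.10 for all tested genes. Against DMSO it was -0.87, beside -0.06. The drug in parental cells gave a median of -0.21, beside 0.02. In each resistant comparison 13 members were called and at least 2-fold lower on this scale (41.9%, beside 7.57% of all tested genes against drug-treated parental cells and 5.25% against DMSO). IRF7 was among them only against drug-treated parental cells, and IFIT5 only against DMSO. In each, 0 members were 2-fold higher (beside 3.14% and 3.7% of all tested genes). IFI44 alone was 2-fold lower with the drug in parental cells, where 0.68% of all tested genes were, and 0 members were 2-fold higher, beside 2.81%. The filter keeps a gene that reaches 1 TPM in 1 group alone. IRF2, IFIT3, IFITM1, IFI6, IFI44, BST2, SAMD9 and NLRC5 averaged under 1 TPM in resistant cells and were tested through their parental levels. ISG20 passed through drug-treated parental cells alone, with a mean of 1.14 TPM there, 0.295 with DMSO and 0.77 in resistant cells. Without the filter 22 of 42 members were lower in each resistant comparison, beside 16.2% and 12.9% of all genes. The members' medians were then -0.45 against drug-treated parental cells and -0.39 against DMSO.

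Scaling changed how calls split between higher and lower. Scaling by upper quartile moved the median of all genes by -0.12 for the drug in parental cells and by 0.15 for resistant against drug-treated parental cells. Relative to that median the members' median was -0.24 and -0.72, which scaling can hardly move, since it shifts all genes nearly alike. With this scaling 2375 genes were higher and 4315 lower for the drug in parental cells, in place of 3429 and 2752, and among the members 5 were higher and 13 lower, with IFNAR1, IFITM3, ISG15, SAMD9 and TAP2 added. For resistant against drug-treated parental cells the split of all genes went from 3228 higher and 5267 lower to 4748 and 3822 by upper quartile and 4224 and 4361 by median ratio. Against DMSO it went from 3160 and 4502 to 4058 and 3766 by median ratio. No tested member changed direction in a called comparison under any alternative that was run.

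**Figure D2:**
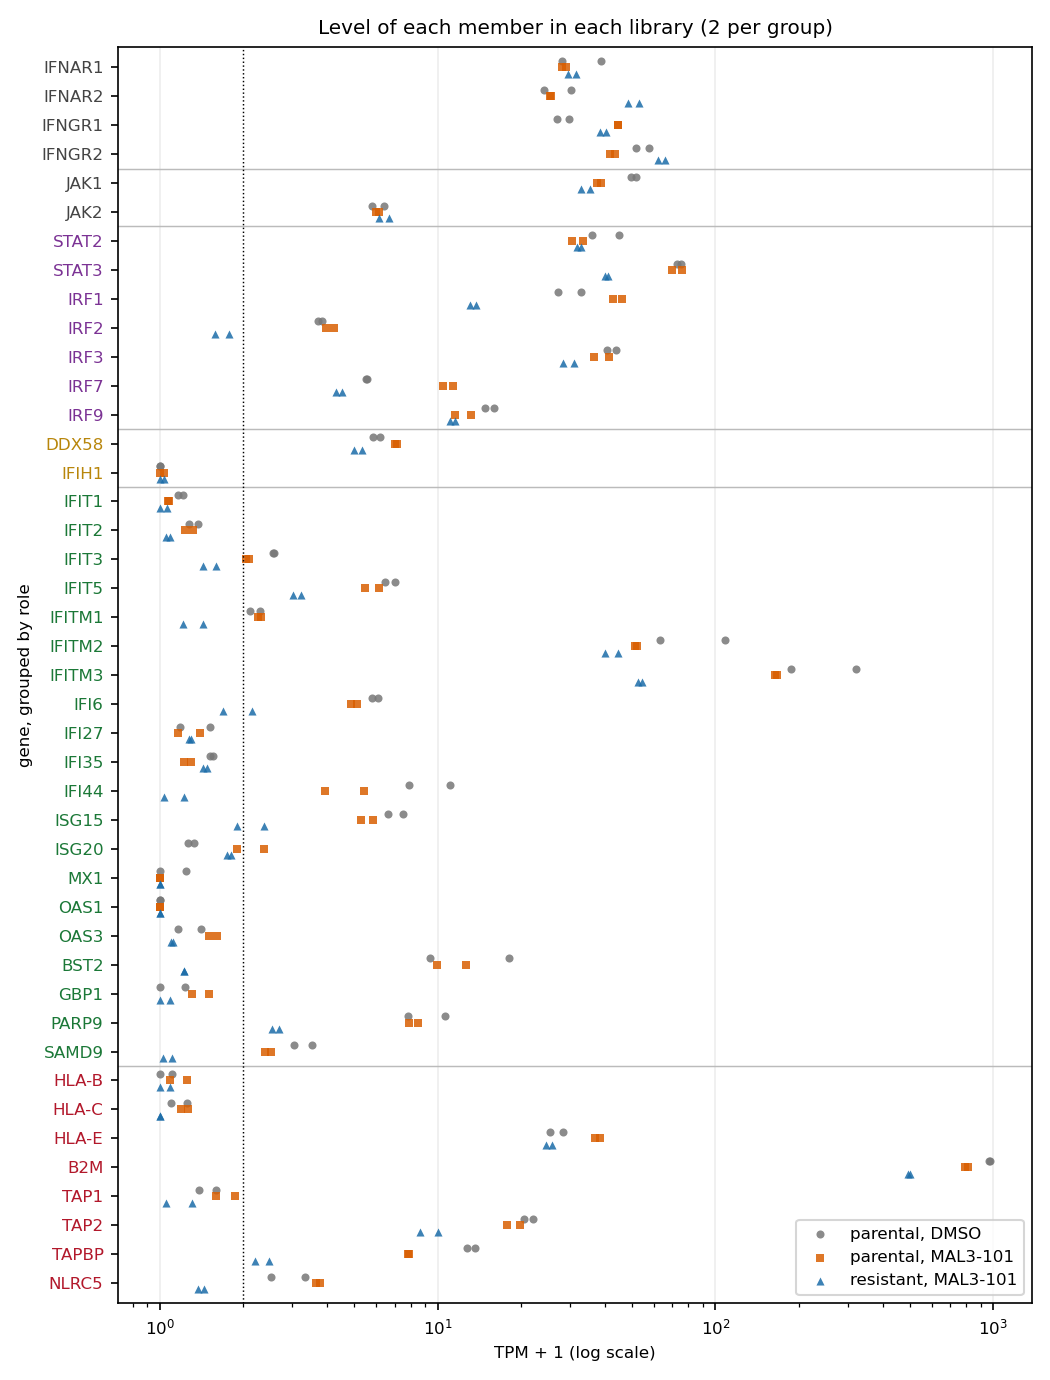
Level of each of the 43 members in each library as TPM + 1 on a log axis, grouped by role (receptors, kinases, STAT and IRF factors, RNA sensors, interferon-stimulated genes, class I presentation), with circles for parental cells with DMSO, squares for parental and triangles for resistant cells with MAL3-101. The dotted line is 1 TPM; 12 members lie left of it in every library, and the triangles lie left of both other symbols for most interferon-stimulated and class I genes.

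**Figure D3:**
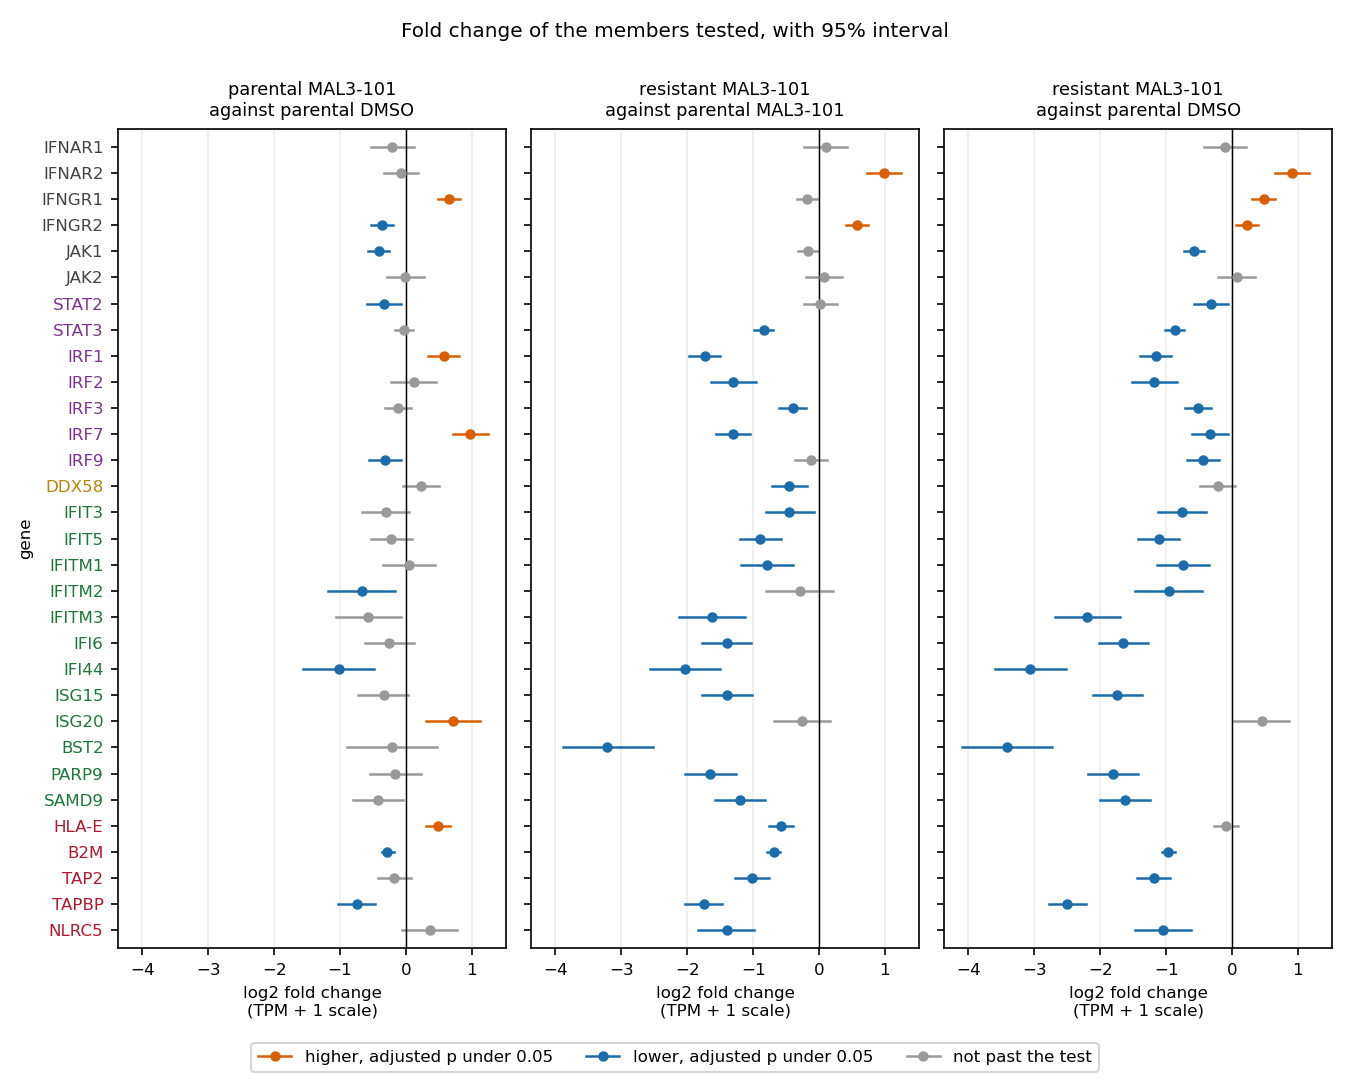
Log2 fold change of the 31 tested members on the TPM + 1 scale, with the 95% interval of the limma fit, in the 3 comparisons. Orange points were called higher, blue points lower and grey points did not pass an adjusted p of 0.05; blue points number 8, 21 and 23 from left to right.

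Among the 4 receptor chains, 2 were higher in resistant than in drug-treated parental cells and 0 were lower. The shares of all tested genes in that comparison were 21.3% higher and 34.8% lower. IFNAR2, the high-affinity chain of the type I receptor, stood at 29.3 and 23.2 TPM with DMSO, 24.7 and 24.4 in parental cells with MAL3-101, and 52.1 and 47.4 in resistant cells with MAL3-101. Both resistant libraries lay above all 4 parental ones. It rose by 0.99 (SE 0.11) against drug-treated parental cells, with a limma adjusted p of 3.0e-04, and by 0.91 (SE 0.11) against DMSO, with a limma adjusted p of 5.4e-04. Its partner IFNAR1 read 37.6 and 27.1 TPM, 27.9 and 27.1, and 28.5 and 30.5 in the same order, and passed no test: resistant minus drug-treated parental cells gave 0.10 (SE 0.14), limma adjusted p = 0.576. The IFNAR1 libraries overlapped between DMSO and either drug-treated group. For the drug in parental cells, the sign of both chains depended on which DMSO library was kept. IFNAR1 gave -0.44 (limma adjusted p = 0.002) without DMSO replicate B and 0.02 (limma adjusted p = 0.811) without replicate A. IFNAR2 gave -0.25 (limma adjusted p = 0.025) and 0.08 (limma adjusted p = 0.379) in the same order. Between resistant and DMSO libraries IFNAR1 gave -0.34 (limma adjusted p = 0.004) without DMSO replicate B and 0.12 (limma adjusted p = 0.169) without replicate A.

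The chains of the type II receptor moved in opposite directions with the drug. IFNGR1, which binds interferon gamma, was at 25.9 and 28.7 TPM with DMSO, 43.5 and 43.5 in drug-treated parental and 39.5 and 37.3 in resistant cells. Both drug-treated groups lay above DMSO, by 0.66 (SE 0.07) in parental cells (limma adjusted p = 6.7e-04) and by 0.48 (SE 0.07) in resistant cells (limma adjusted p = 0.001). IFNGR2, the signalling chain, read 56.8 and 50.6 TPM, 42.5 and 40.7, and 65 and 60.9. It fell by 0.36 (SE 0.07) with the drug in parental cells (limma adjusted p = 0.007; 0.060 without parental MAL3-101 replicate B). In resistant cells it was 0.58 (SE 0.07) above drug-treated parental cells (limma adjusted p = 4.7e-04). Its rise of 0.23 against DMSO (limma adjusted p = 0.035) went past 0.05 on leaving out any 1 library but DMSO replicate A, with 0.15 (limma adjusted p = 0.071) without DMSO replicate B. For IFNGR1 the resistant and drug-treated parental libraries did not overlap, and their difference of -0.18 had a limma adjusted p of 0.069, or 0.014 on leaving out either DMSO library.

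Of the kinases, JAK1, which serves both receptors, fell and JAK2, which serves the type II receptor, did not pass any test. JAK1 stood at 50.8 and 48.7 TPM with DMSO, 37.9 and 36.4 in drug-treated parental and 34.4 and 31.8 in resistant cells, with no overlap between groups. It fell by 0.41 (SE 0.07) with the drug in parental cells (limma adjusted p = 0.003) and was lower in resistant cells than with DMSO, at -0.58 (SE 0.07; limma adjusted p = 3.8e-04). The difference between resistant and drug-treated parental cells was -0.16 (limma adjusted p = 0.067), and it was called on leaving out either DMSO library. JAK2 ranged from 4.83 to 5.66 TPM over all 6 libraries. Its 95% interval was -0.29 to 0.27 for the drug in parental cells and -0.20 to 0.35 between resistant and drug-treated parental cells.

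Resistant cells had lower levels of 5 of the 7 STAT and IRF factors than drug-treated parental cells, and of all 7 than DMSO cells. Among all tested genes 34.8% and 29.7% were lower in these comparisons. IRF2 passed the filter through its parental levels alone. IRF1, an activator of class I and other interferon targets and itself induced by interferon, read 26.2 and 31.8 TPM with DMSO, 41.9 and 45.2 in drug-treated parental and 12.1 and 12.7 in resistant cells. The 3 groups did not overlap, with drug-treated parental cells highest and resistant cells lowest. It rose by 0.58 (SE 0.10) with the drug in parental cells (limma adjusted p = 0.004). Resistant minus drug-treated parental cells gave -1.73 (SE 0.10; limma adjusted p = 1.9e-05), a 3.52-fold lower mean TPM. Resistant minus DMSO gave -1.16 (SE 0.10; limma adjusted p = 1.2e-04).

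IRF7, the factor that amplifies type I interferon production, had the same order of groups. Its levels were 4.52 and 4.58 TPM with DMSO, 9.44 and 10.4 in drug-treated parental and 3.3 and 3.53 in resistant cells. The drug raised it by 0.97 (SE 0.11) in parental cells (limma adjusted p = 8.7e-04), a 2.18-fold rise of the mean TPM. It lay lower in resistant than in drug-treated parental cells, at -1.30 (SE 0.11; limma adjusted p = 9.7e-05). Its smaller difference from DMSO, -0.33 (limma adjusted p = 0.045), was not called on leaving out any 1 library (limma adjusted p from 0.050 to 0.205). IRF2, which competes with IRF1 for its sites, read 2.72 and 2.84 TPM, 3.25 and 2.98, and 0.58 and 0.77. Only the resistant pair stood apart by the test, at -1.30 (SE 0.14) against drug-treated parental cells (limma adjusted p = 2.9e-04) and -1.18 (SE 0.14) against DMSO (limma adjusted p = 5.5e-04).

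STAT3, which carries signals of the IL-6 family as well as interferons, was level in parental cells and lower in resistant cells. It stood at 74.2 and 71.8 TPM with DMSO, 74.5 and 68.8 with the drug, and 39 and 40 in resistant cells. The resistant libraries differed from drug-treated parental ones by -0.84 (SE 0.06; limma adjusted p = 4.1e-05). In parental cells the drug gave -0.03 (SE 0.06; limma adjusted p = 0.744), and the libraries overlapped. IRF3, which acts below the RNA and DNA sensors, was at 39.8 and 42.9 TPM, 40.5 and 35.7, and 29.9 and 27.3. Its fall between resistant and drug-treated parental cells was -0.40 (SE 0.09; limma adjusted p = 0.006), and went past the threshold without parental MAL3-101 replicate A (0.052) or resistant replicate B (0.055) or by upper-quartile scaling (0.078). Against DMSO it was -0.52 (SE 0.09; limma adjusted p = 0.002).

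STAT2 and IRF9, parts of the ISRE-binding complex, changed less. STAT2 read 43.8 and 35.1 TPM with DMSO, 29.5 and 32.4 in drug-treated parental and 30.8 and 31.9 in resistant cells. IRF9 read 13.8 and 14.9, 10.6 and 12.2, and 10.6 and 10.1 TPM. Both were lower than DMSO in the drug-treated parental pair, STAT2 at -0.33 (SE 0.11; limma adjusted p = 0.043) and IRF9 at -0.32 (SE 0.10; limma adjusted p = 0.042). These calls were easily lost. That of STAT2 ended on leaving out any 1 library but DMSO replicate B (limma adjusted p from 0.079 to 0.216), and its value was -0.18 without DMSO replicate A. That of IRF9 ended without any 1 library but DMSO replicate A (from 0.063 to 0.245). In resistant cells against DMSO, IRF9 was at -0.44 (SE 0.10; limma adjusted p = 0.010, but 0.053 and 0.074 without resistant replicate A or B). STAT2 was at -0.32 there (limma adjusted p = 0.043), again lost without any 1 library but DMSO replicate B (0.067 to 0.179), with -0.16 without DMSO replicate A. Resistant and drug-treated parental libraries overlapped for both genes, with 95% intervals of the difference of -0.23 to 0.27 for STAT2 and -0.36 to 0.12 for IRF9.

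The RNA sensor DDX58 (RIG-I), which detects viral RNA in the cytoplasm, was expressed at a low level in each group. It read 5.2 and 4.84 TPM with DMSO, 6.01 and 6.12 in drug-treated parental and 4.34 and 4.01 in resistant cells. Resistant minus drug-treated parental cells gave -0.45 (SE 0.11; limma adjusted p = 0.013), a call lost on leaving out any 1 of these 4 libraries (0.054 to 0.094). The other comparisons of DDX58 did not pass, at 0.23 (limma adjusted p = 0.148) for the drug in parental cells and -0.22 (limma adjusted p = 0.151) for resistant cells against DMSO. IFIH1 (MDA5), a sensor of long double-stranded RNA, was at 0 TPM in 4 libraries and at 0.04 TPM in 1 library of each drug-treated group.

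Interferon-stimulated genes made up the largest group, 20 members with 12 tested, and 10 of the 12 were lower in resistant than in drug-treated parental cells and 0 higher. Their median difference was -1.3. Against DMSO, 11 were lower and 0 higher, with a median of -1.63. IFIT3, IFITM1, IFI6, IFI44, BST2 and SAMD9, under 1 TPM on average in resistant cells, passed the filter through parental levels alone. The filter favours lower values in resistant cells for such genes, so the counts and medians of both resistant comparisons lean that way. In drug-treated parental cells against DMSO, 2 were lower, 1 was higher and 9 did not pass. The background shares of all tested genes were 34.8% lower and 21.3% higher for resistant against drug-treated parental cells. They were 29.7% and 20.9% for resistant cells against DMSO, and 18.2% and 22.6% for the drug in parental cells.

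BST2 (tetherin), which holds budding virus particles at the cell membrane, had the largest difference of all members on the log2(TPM + 1) scale in both resistant comparisons. It stood at 8.37 and 17.1 TPM with DMSO, 11.7 and 8.97 in drug-treated parental cells, and 0.22 in each resistant library. Every parental library was far above both resistant ones, while the parental groups overlapped. Set against drug-treated parental cells, resistant cells gave -3.21 (SE 0.29; limma adjusted p = 1.1e-04), and the mean TPM was 47-fold lower. The size of that ratio is uncertain, since 0.22 TPM is near 0 and the number of reads behind it is unknown. Against DMSO the difference was -3.42 (SE 0.29; limma adjusted p = 1.1e-04). With the drug in parental cells it was -0.21 (SE 0.29; limma adjusted p = 0.594), with a sign that depended on the DMSO library kept: -0.69 (limma adjusted p = 0.015) without DMSO replicate A and 0.27 (limma adjusted p = 0.259) without replicate B.

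IFI44, a gene induced by type I interferon, was lower with the drug in parental cells, and lower in resistant than in drug-treated parental cells. It stood at 6.92 and 10.1 TPM with DMSO, 2.92 and 4.42 in drug-treated parental and 0.22 and 0.04 in resistant cells, with no overlap. The drug gave -1.02 (SE 0.23) in parental cells (limma adjusted p = 0.011), the largest fall among members there, though not called without parental MAL3-101 replicate A (-0.79, limma adjusted p = 0.080), without the filter (0.057) or with a pseudocount of 0.1 TPM (0.066). Resistant minus drug-treated parental cells gave -2.03 (SE 0.23; limma adjusted p = 3.0e-04). SAMD9, a restriction factor of poxviruses, was at 2.54 and 2.04, 1.51 and 1.4, and 0.11 and 0.03 TPM. It was lower in resistant than in drug-treated parental cells, by -1.20 on the log2 scale (SE 0.16; limma adjusted p = 7.1e-04). For both genes the resistant libraries were near 0, where the number of reads is unknown.

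IFITM3, a membrane protein that blocks virus entry, was the most abundant member after B2M in both parental groups, while IFNGR2 was above it in resistant cells. It read 186 and 319.6 TPM with DMSO, 163 and 165 in drug-treated parental and 51.5 and 53.3 in resistant cells. The resistant pair was well below the other libraries, and the DMSO pair differed between A and B. Between resistant and drug-treated parental cells it differed by -1.63 (SE 0.21; limma adjusted p = 5.9e-04), and resistant minus DMSO gave -2.20 (SE 0.21; limma adjusted p = 1.9e-04). For the drug in parental cells the value of -0.57 did not pass (limma adjusted p = 0.068); it was -0.96 (limma adjusted p = 9.1e-06) without DMSO replicate A and -0.18 (limma adjusted p = 0.012) without replicate B.

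Its close relatives IFITM2 and IFITM1 were also measured. IFITM2 stood at 62.2 and 107 TPM with DMSO, 51.3 and 50.3 in drug-treated parental and 39.2 and 43.7 in resistant cells. The drug in parental cells gave -0.67 (SE 0.21; limma adjusted p = 0.041), which ended on leaving out any 1 of the 4 drug-treated libraries (0.072 to 0.152) and was -1.06 (limma adjusted p = 4.8e-05) or -0.29 (limma adjusted p = 0.014) without DMSO replicate A or B. Resistant minus DMSO gave -0.96 (SE 0.21; limma adjusted p = 0.008), -0.58 without DMSO replicate B and not called without resistant replicate A (0.058). The difference of -0.29 between resistant and drug-treated parental cells had a limma adjusted p of 0.285, or 0.003 on leaving out either DMSO library. IFITM1 was at 1.12 and 1.3, 1.25 and 1.31, and 0.21 and 0.43 TPM, and was lower in resistant than in drug-treated parental cells at -0.79 (SE 0.17; limma adjusted p = 0.006). Against DMSO IFITM1 gave -0.75 (SE 0.17; limma adjusted p = 0.008), with 0.064 without resistant replicate A. These paralogs are alike in sequence and IFITM1 and IFITM2 share exon bases in the annotation, so how reads were divided among them is uncertain.

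ISG15, a ubiquitin-like protein joined to other proteins, and IFI6, a mitochondrial protein that limits apoptosis, had much the same pattern. ISG15 read 6.53 and 5.65 TPM with DMSO, 4.31 and 4.86 in drug-treated parental and 0.9 and 1.37 in resistant cells. Its resistant libraries were the lowest, at -1.39 (SE 0.16) from drug-treated parental cells (limma adjusted p = 3.3e-04) and -1.74 (SE 0.16) from DMSO (limma adjusted p = 1.5e-04). The drug in parental cells gave ISG15 -0.34 (SE 0.16; limma adjusted p = 0.126), with no overlap. IFI6 was at 4.83 and 5.1, 3.89 and 4.15, and 0.69 and 1.14 TPM. Resistant minus drug-treated parental cells gave IFI6 -1.40 (SE 0.16; limma adjusted p = 3.0e-04).

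PARP9, an ADP-ribosyltransferase partner that lies head to head with DTX3L, was at 9.6 and 6.8 TPM with DMSO, 6.86 and 7.48 in drug-treated parental and 1.53 and 1.68 in resistant cells. The parental groups overlapped, and the resistant pair lay below them at -1.65 (SE 0.17) from drug-treated parental cells (limma adjusted p = 1.8e-04). IFIT5, an RNA-binding antiviral protein, read 5.46 and 6.04, 4.46 and 5.13, and 2.22 and 2.02 TPM, with -0.89 (SE 0.13; limma adjusted p = 0.001) between resistant and drug-treated parental cells. IFIT3 read 1.55 and 1.57, 1.04 and 1.09, and 0.6 and 0.43 TPM. Its difference of -0.45 between resistant and drug-treated parental cells (limma adjusted p = 0.041) was lost on leaving out any 1 of those 4 libraries (0.085 to 0.197) and by median-ratio scaling (0.060) or upper-quartile scaling (0.079). Its fall against DMSO was -0.76 (SE 0.15; limma adjusted p = 0.006).

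ISG20, an RNA exonuclease, went the other way with the drug. It was at 0.33 and 0.26 TPM with DMSO, 1.37 and 0.9 in drug-treated parental and 0.74 and 0.8 in resistant cells, all low. It passed the filter through drug-treated parental cells alone, the group in which its mean was highest. It rose by 0.71 (SE 0.18) with the drug in parental cells (limma adjusted p = 0.017; 0.108 without parental MAL3-101 replicate A). ISG20 was the single tested interferon-stimulated member not called lower in resistant than in DMSO libraries, at 0.45 (limma adjusted p = 0.069).

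**Figure D4:**
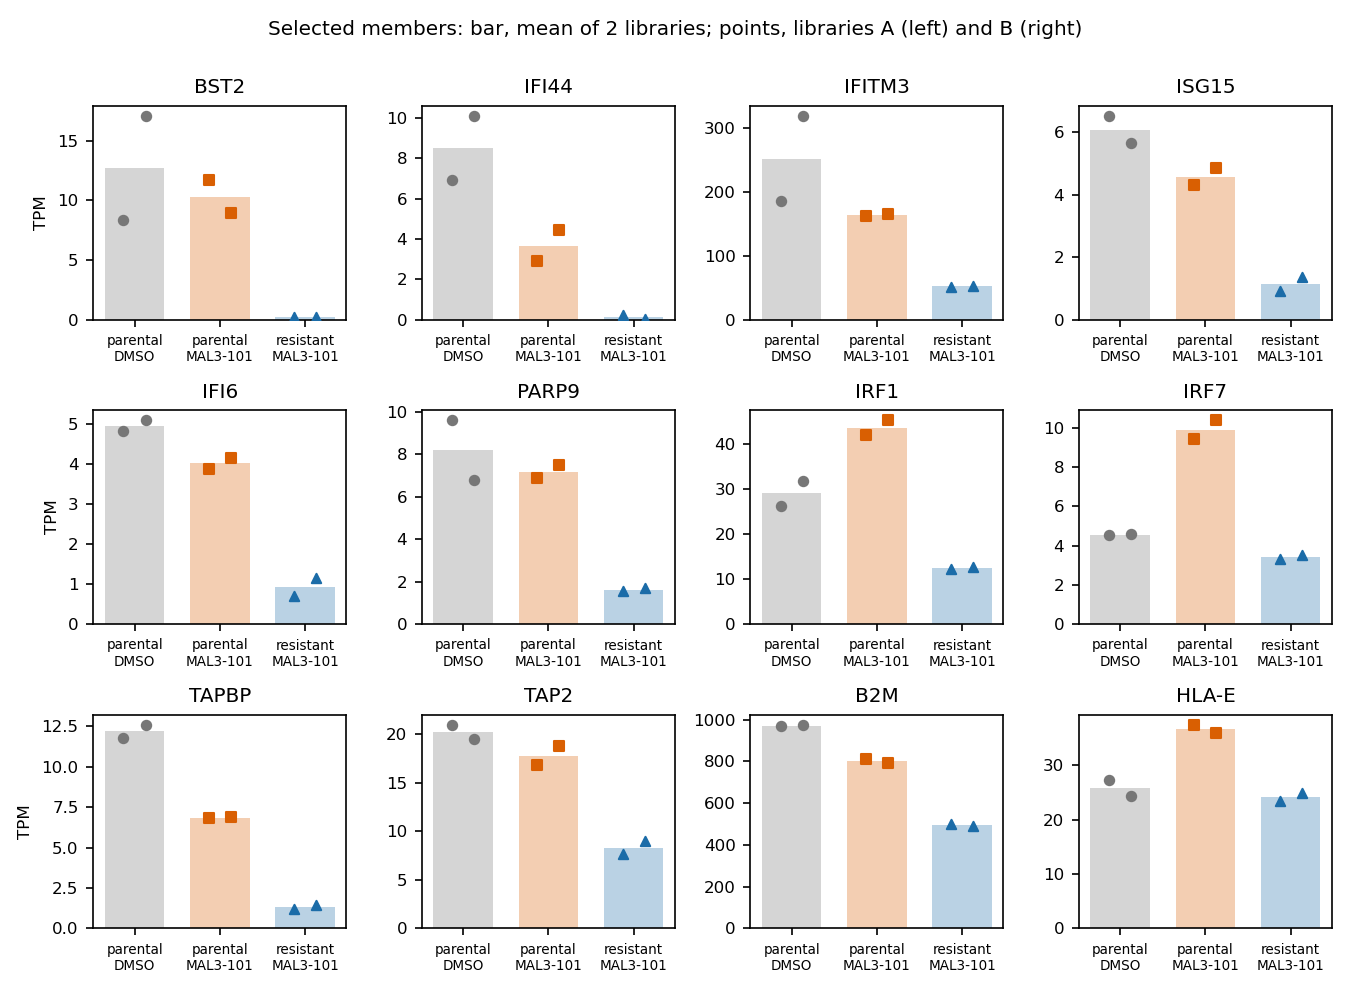
TPM of 12 members in each library (points, A on the left and B on the right) with the mean of the 2 libraries of each group (bars), on axes that start at 0 and differ between genes. BST2 stands at 0.22 TPM in both resistant libraries, IRF1 and IRF7 are highest in drug-treated parental cells, and the resistant pair is lowest for every gene but HLA-E, for which it overlaps the DMSO pair.

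The class I pathway had 5 tested members, and all 5 were lower in resistant than in drug-treated parental cells (median -1.01). Of all tested genes, 34.8% were lower in that comparison. NLRC5 passed the filter through its parental levels alone. B2M, the light chain of every class I molecule, was the most abundant member at 968 and 976 TPM with DMSO, 812 and 791 in drug-treated parental and 501 and 492 in resistant cells. The 3 groups fell in that order without overlap. The drug gave -0.28 (SE 0.04; limma adjusted p = 0.002) in parental cells, and resistant cells were at -0.69 (SE 0.04) from drug-treated parental cells (limma adjusted p = 2.1e-05) and -0.97 (SE 0.04) from DMSO (limma adjusted p = 8.8e-06).

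TAPBP (tapasin), which bridges class I molecules to the peptide transporter and edits their peptides, fell further. It read 11.8 and 12.6 TPM with DMSO, 6.81 and 6.88 in drug-treated parental and 1.2 and 1.47 in resistant cells. Again the groups did not overlap and the order was DMSO, drug-treated parental, resistant. The drug in parental cells gave -0.75 (SE 0.12; limma adjusted p = 0.003), resistant minus drug-treated parental cells gave -1.75 (SE 0.12; limma adjusted p = 3.7e-05) and resistant minus DMSO gave -2.50 (SE 0.12; limma adjusted p = 1.2e-05). The mean TPM was 9.13-fold lower in resistant than in DMSO libraries.

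TAP2, 1 chain of the transporter that carries peptides into the endoplasmic reticulum, was at 21 and 19.5 TPM, 16.8 and 18.8, and 7.64 and 9. It passed in the resistant comparisons, at -1.01 (SE 0.11) from drug-treated parental cells (limma adjusted p = 2.3e-04) and -1.19 (SE 0.11) from DMSO (limma adjusted p = 1.4e-04), and not with the drug in parental cells (-0.18, limma adjusted p = 0.224). NLRC5, the transactivator of class I genes, read 2.34 and 1.52 TPM, 2.78 and 2.66, and 0.37 and 0.44. Its resistant pair was lowest, at -1.40 (SE 0.18) from drug-treated parental cells (limma adjusted p = 5.4e-04) and -1.05 (SE 0.18) from DMSO (limma adjusted p = 0.002). NLRC5 gave 0.36 (limma adjusted p = 0.150) with the drug in parental cells, and 0.56 (limma adjusted p = 0.030) or 0.16 (limma adjusted p = 0.484) without DMSO replicate A or B.

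HLA-E, a class I molecule of little variation that is read by natural killer cells, differed from the other 4. It stood at 27.3 and 24.4 TPM with DMSO, 37.5 and 36 in drug-treated parental and 23.5 and 24.9 in resistant cells. Drug-treated parental cells were highest, and the resistant and DMSO libraries overlapped. It rose by 0.49 (SE 0.08) with the drug in parental cells (limma adjusted p = 0.003). Resistant cells were at -0.58 (SE 0.08) from drug-treated parental cells (limma adjusted p = 6.7e-04) and at -0.09 from DMSO (limma adjusted p = 0.360, 95% interval -0.27 to 0.09).

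The class I heavy chains HLA-B and HLA-C were close to absent from the files. HLA-B did not exceed 0.25 TPM and HLA-C did not exceed 0.26 TPM in any library, and both HLA-C values were 0 in resistant cells. These genes vary greatly between people, and how reads from alleles unlike the reference were placed is not given in the sources used here, so these low values need not be low RNA. TAP1, the other transporter chain, was at 0.39 and 0.6 TPM with DMSO, 0.6 and 0.86 in drug-treated parental and 0.31 and 0.05 in resistant cells. The immunoproteasome subunits PSMB8 and PSMB9, which are not among the 43, did not exceed 0.3 and 0.13 TPM. PSMB10, another subunit outside the 43, averaged 15.4 TPM with DMSO, 12.6 in drug-treated parental and 9.41 in resistant cells.

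The remaining members under 1 TPM were interferon-stimulated genes. OAS1, a synthetase that activates RNase L, was at 0 in every library. MX1, a dynamin-like antiviral GTPase, was at 0.24 TPM in 1 DMSO library and at 0 in the other 5. IFIT1 ran from 0 to 0.21 TPM, IFIT2 from 0.05 to 0.37, OAS3 from 0.1 to 0.61, GBP1 from 0 to 0.5, IFI27 from 0.16 to 0.52 and IFI35 from 0.22 to 0.56. No fold change is given for these genes, since 2 decimals of TPM with unknown depth do not support one.

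Overlaps between gene models touch some of these values. In GENCODE release 29, 18 of the 43 members share exon bases with another gene, 13 of them with a gene on the opposite strand, among them IRF1, IFNGR2, IFNAR2, JAK1, IRF3, ISG15, IFITM3 and PARP9. Whether counting used strand is not given in the sources used here. Reads from the bases that such a member shares with its partner therefore cannot be told apart. How much of each gene is shared was not measured.

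Genes of the same pathway outside the 43 were taken from 5 lists with 103 names, of which 100 were in the files and 54 were tested. In resistant against drug-treated parental cells 31 were lower, 6 higher and 17 not past the test (median -0.37). Against DMSO 23 were lower and 8 higher. Among the genes lower in both, USP18, SP110, TDRD7 and ERAP2 averaged under 1 TPM in resistant cells and passed the filter through parental levels. Among those higher in both, IRF8 passed it through resistant cells alone. With the drug in parental cells 6 were lower, 11 higher and 37 not past. The shares of all tested genes given above (34.8% lower and 21.3% higher, 29.7% and 20.9%, and 18.2% and 22.6% in the same order) are the background of these counts and of those by list below, and the 11 higher are near it. No interferon ligand was tested: 8 of the 9 ligand genes in the files, IFNB1 among them, were at 0 in every library. None of the 10 class II genes reached 1 TPM.

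Of 20 tested signalling and sensor genes, 10 were lower and 3 higher in resistant than in drug-treated parental cells, and 10 and 5 against DMSO. TMEM173 (STING), the adaptor of cytoplasmic DNA sensing, read 24.5 and 29.1, 24.5 and 23.2, and 9.84 and 9.62 TPM, with -1.21 (SE 0.10; limma adjusted p = 6.8e-05) between resistant and drug-treated parental cells. SOCS1, a feedback inhibitor of JAK kinases, went up, from 4.65 and 5.77 TPM with DMSO and 3.38 and 3.56 in drug-treated parental to 12.2 and 12 in resistant cells. It rose by 1.55 (SE 0.13) against drug-treated parental cells (limma adjusted p = 7.1e-05) and by 1.08 (SE 0.13) against DMSO (limma adjusted p = 4.2e-04). USP18, which blocks IFNAR2 signalling and removes ISG15 from proteins, read 1.02 and 0.92, 1.98 and 2.01, and 0.55 and 0.15 TPM. It was lower in resistant than in drug-treated parental cells, at -1.17 (SE 0.19; limma adjusted p = 0.002).

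Among 21 other interferon-stimulated genes, 10 were lower and 2 higher in resistant than in drug-treated parental cells (median -0.62). Against DMSO 8 were lower, 1 higher and 12 not past, with a median of -0.14, and 1 was lower and 2 higher with the drug in parental cells. LGALS3BP, a secreted glycoprotein, was at 119 and 141 TPM with DMSO, 79.5 and 78.1 in drug-treated parental and 6.56 and 8.05 in resistant cells, with no overlap. Resistant minus drug-treated parental cells gave -3.27 (SE 0.11; limma adjusted p = 2.1e-06). DTX3L, the partner of PARP9, read 7.86 and 5.78, 8.09 and 7.9, and 1.37 and 2.01 TPM, with -1.75 (SE 0.18; limma adjusted p = 1.9e-04). As the pair share exon bases, to an extent that was not measured, PARP9 and DTX3L need not be separate evidence. SP110, a nuclear body protein, went from 2.09 and 2.66 TPM in drug-treated parental to 0.05 and 0 in resistant cells, at -1.71 (SE 0.16; limma adjusted p = 1.3e-04). IFI16, a DNA sensor, read 41.5 and 38.5, 65.5 and 68.9, and 43.3 and 40.2 TPM, highest in drug-treated parental cells like IRF1 and HLA-E. IFI16 rose by 0.73 (SE 0.07) with the drug in parental cells (limma adjusted p = 3.7e-04), and resistant minus DMSO gave 0.06 (limma adjusted p = 0.488).

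Of 13 other class I genes, 6 were higher and 2 lower with the drug in parental cells, while 11 were lower and 1 higher in resistant than in drug-treated parental cells. Against DMSO 5 were lower, 2 higher (CALR and PDIA3) and 6 not past, with a median of -0.17. The chaperones of the endoplasmic reticulum that fold class I chains, and many other proteins, led the rises. CALR (calreticulin) stood at 1661 and 1661 TPM with DMSO, 2763 and 2771 in drug-treated parental and 1956 and 1935 in resistant cells, and rose by 0.74 (SE 0.04; limma adjusted p = 4.8e-05) with the drug. CANX (calnexin) read 404 and 414, 639 and 595, and 235 and 233 TPM, with -1.40 (SE 0.05; limma adjusted p = 2.8e-06) between resistant and drug-treated parental cells. ERAP2, an aminopeptidase that trims peptides for class I, read 3.9 and 3.9, 1.9 and 2.15, and 0.09 and 0.08 TPM. Resistant minus drug-treated parental cells gave ERAP2 -1.48 (SE 0.14; limma adjusted p = 1.6e-04), and the drug in parental cells gave -0.70 (SE 0.14; limma adjusted p = 0.008, or 0.062 without parental MAL3-101 replicate A). HLA-F was the 1 gene called higher in resistant than in drug-treated parental cells. It spread widely, at 0.44 and 1.98, 0.48 and 0.59, and 1.47 and 2.96 TPM. Its difference there was 1.03 (limma adjusted p = 0.045). That call was lost without parental MAL3-101 replicate A (difference 0.98) or B (1.08) or resistant replicate B (0.69).

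**Figure D5:**
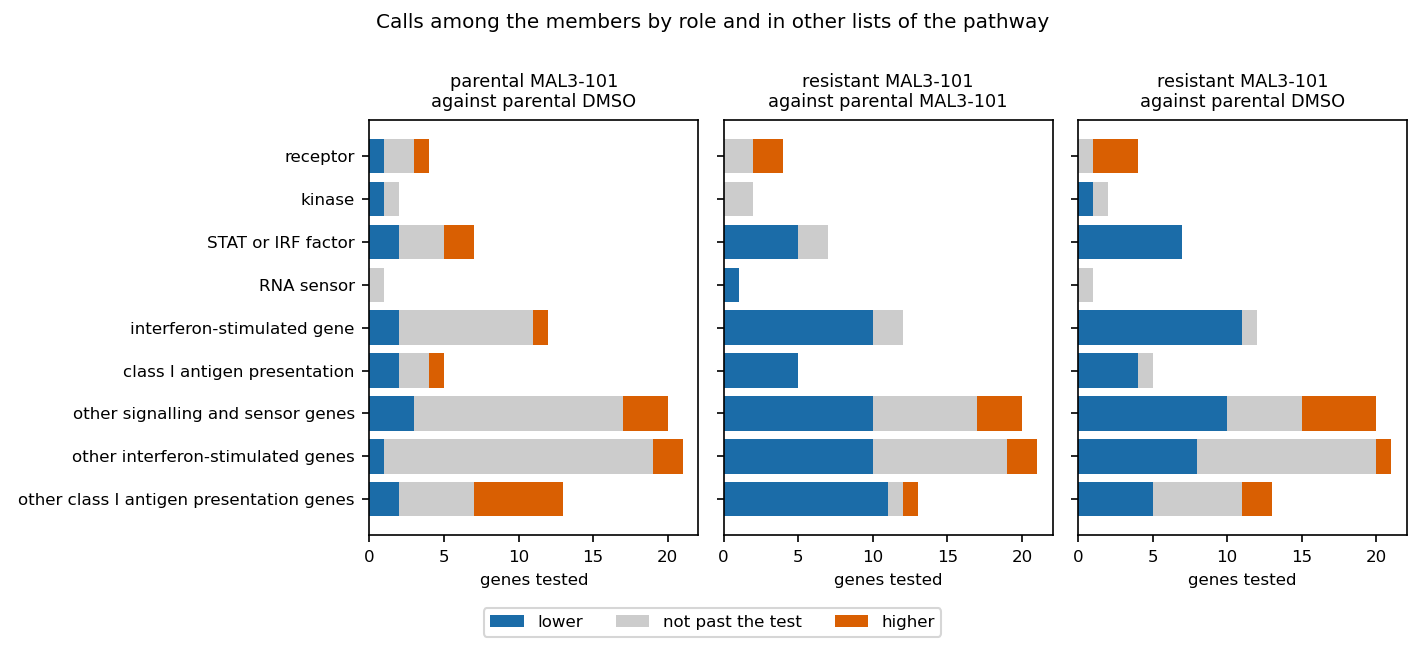
Number of tested genes called lower (blue), higher (orange) or not past an adjusted p of 0.05 (grey), stacked to the number tested on the x axis, for the members by role (upper 6 rows) and for 3 further lists of the pathway. Receptors hold no lower call in either resistant comparison, while all 5 tested class I members and 10 of 12 interferon-stimulated members are lower in resistant than in drug-treated parental cells. Of all tested genes 34.8% were lower in the latter comparison. IRF2, IFIT3, IFITM1, IFI6, IFI44, BST2, SAMD9 and NLRC5 passed the filter through parental levels alone.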

How the data were processed

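Gene expression was measured by paired-end RNA sequencing of 6 libraries made from total RNA with a TruSeq kit, per the labels' protocols. The deposited files give TPM per gene name, 1 file per library. RSEM, DESeq and the build hg19 were used, per the submitters' processing notes; versions, aligner, annotation and strand setting: not given in the sources used here. TPM keeps no depth, so no counting error is given. Samples were grouped by the labels' titles; those of the DMSO libraries also carry the drug's name, while their descriptions name DMSO alone.

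Values were taken as log2(TPM + 1) for the 15148 genes whose average reached 1 TPM in any of the 3 groups. A linear model of the groups in all 6 libraries was fitted with limma 3.58.1 (R 4.3.3, eBayes with a trend), with 3 residual and 4.17 prior degrees of freedom. Benjamini-Hochberg adjustment ran over all tested genes of each of the 3 comparisons, with a call under 0.05. The fit was tested on simulated data. Members and lists were chosen with earlier results of these data known. The rule on names allowed all 43 members, described in full where called, at 5 TPM or more and most changed, with 15 in every case; outside them, up to 4 called genes per list and comparison with the largest change, and PSMB8, PSMB9 and IFNB1 among those named in every case. Some items are not reported here. Promoters came from RefSeq (GRCh38.p14) by symbol or synonym and were not converted to hg19. Exon overlaps came from GENCODE release 29. Alternatives were pseudocounts of 0.1 and 0.5 TPM, no filter or one of 5 TPM, only the 4 libraries compared, a replicate block, median-ratio and upper-quartile scaling, a threshold of 0.01, and each library left out in turn; TPM without mitochondrial genes was added after seeing the data. Python 3.11.15, pandas 2.3.3 and matplotlib 3.10.9 made tables and figures.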

Additional observations from a re-analysis of the deposited data

How the results depend on the processing

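Of the calls among members, 20 of 23 for resistant against drug-treated parental cells and 20 of 26 for resistant cells against DMSO held in every setting that tested the gene, but 7 of 13 for the drug in parental cells (B2M, HLA-E, IFNGR1, IRF1, IRF7, JAK1 and TAPBP). The least stable count was that of members lower with the drug in parental cells, 8: it was 4 with no filter and at a threshold of 0.01, 5 with only the 4 libraries compared, 13 by upper-quartile scaling, and from 4 to 10 on leaving out 1 library, with 4 without either parental MAL3-101 library and 5 without either resistant one. The other counts stayed within 1.5 times: 21 lower in resistant than in drug-treated parental cells ranged from 18 to 24 without 1 library and was 15 with a filter at 5 TPM, and 23 lower than DMSO ranged from 18 to 23 and was 17. With a replicate block, members higher and lower were 5 and 7, 2 and 20, and 3 and 21 in the 3 comparisons. Between groups, the deviations of libraries with the same letter correlated across genes at 0.026, -0.02 and -0.021. These values show no large shared effect of the letters, and cannot tell whether A and B were paired. Unknown depth limits the values under 1 TPM most. A library left out leaves 1 in its group, which is then taken to vary like the others.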
